A study of Mus musculus with 10 samples.

Results

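The 34 genes described here encode the enzymes and carriers of glycolysis and lactate export, the HIF alpha subunits and oxygen sensors, and a set of transcripts known to be induced by low oxygen. They were selected by gene symbol and not by a threshold on their values, but with earlier results of these data known. Of the 34, 32 were measured among 19505 genes, each by 1 probe set. No probe set carried the symbols Gpi1 (glucose-6-phosphate isomerase) or Eno1 (enolase), which were not analysed here. RNA came from mouse small intestine organoids of the BALB/c strain, grown as epithelial cultures in Matrigel and hybridised to 10 single-colour whole-transcript arrays. In 5 cultures, TNF at 20 ng/ml was given together with pegtarazimod, a PEG-linked peptide, at 5 mg/ml. In the other 5, TNF at 20 ng/ml was given with 2.625 mM PEG as the vehicle. Both treatments ran for 48 h, so TNF is common to the groups, and no cultures free of TNF were analysed here. The labels state the 2 doses in different units and do not say whether their PEG content matched. The series calls the 5 samples per group biological replicates but does not say whether they came from separate mice, passages or wells, and the p-values cover only the spread between these samples.

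In glycolysis, glucose enters the cell through carriers, is trapped by hexokinases and is split and oxidised to pyruvate, which is either reduced to lactate and exported or passed to the mitochondria. Phosphofructokinase is the main control point of the upper pathway, and the bifunctional PFKFB enzymes set the level of its activator. When oxygen is short, prolyl hydroxylases stop marking the HIF alpha proteins for destruction, and HIF then raises the transcription of most glycolytic genes and of genes for pH control, angiogenesis and mitophagy. HIF activity is controlled mainly through protein stability, which arrays of RNA do not measure. In the gut, the epithelium lies on a steep oxygen gradient and shows physiological hypoxia towards the lumen.

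HIF binds a short core, ACGTG or GCGTG, within the hypoxia response element. RefSeq windows (GRCm38.p6) of 300 bases, 250 before to 50 after a transcript start, were found for 29 of the 32 measured genes, with 40 starts. On either strand, with a palindromic CACGTG counted on both, 33 of the 40 windows (82.5%) held the core, against 43.8% of all 32851 windows in the table. ACGTG alone was in 25 of the 40 (62.5%), against 19.6% of all windows. By gene, 28 of 29 (96.6%) had the core at any start, against 54.1% of the 15691 measured genes with a window, and Tpi1 was the gene without it. A match of 5 letters is not a binding site, and genes with several starts had more chances to hold one. The members include genes listed because low oxygen induces them, so the higher share is not independent of that choice. The base content of the windows was not matched. Some of these windows are printed, with the core in capitals on whichever strand it lies (CACGT is ACGTG on the opposite strand). Hk2 (chr6:82774405-82774704, minus strand), Pfkfb4 (chr9:108991652-108991951, plus strand) and the first of the 2 starts of Pfkfb3 (chr2:11553880-11554179, minus strand) are shown because Hk2 and Pfkfb4 are the called members and Pfkfb3 is compared with Pfkfb4 below. The first of the 2 starts of Ldha (chr7:46845554-46845853, plus strand) is shown because it had the most matches of any measured member, 7.
Hk2: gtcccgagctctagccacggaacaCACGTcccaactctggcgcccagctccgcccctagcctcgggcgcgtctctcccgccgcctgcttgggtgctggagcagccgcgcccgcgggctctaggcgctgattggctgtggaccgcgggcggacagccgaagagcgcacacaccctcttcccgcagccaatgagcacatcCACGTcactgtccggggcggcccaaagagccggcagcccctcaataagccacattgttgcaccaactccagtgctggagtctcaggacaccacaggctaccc
Pfkfb4: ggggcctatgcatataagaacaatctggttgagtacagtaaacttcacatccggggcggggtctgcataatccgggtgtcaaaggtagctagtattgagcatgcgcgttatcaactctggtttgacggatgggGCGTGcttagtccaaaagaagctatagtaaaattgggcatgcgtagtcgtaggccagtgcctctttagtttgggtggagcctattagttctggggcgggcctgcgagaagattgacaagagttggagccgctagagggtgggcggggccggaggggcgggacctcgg
Pfkfb3: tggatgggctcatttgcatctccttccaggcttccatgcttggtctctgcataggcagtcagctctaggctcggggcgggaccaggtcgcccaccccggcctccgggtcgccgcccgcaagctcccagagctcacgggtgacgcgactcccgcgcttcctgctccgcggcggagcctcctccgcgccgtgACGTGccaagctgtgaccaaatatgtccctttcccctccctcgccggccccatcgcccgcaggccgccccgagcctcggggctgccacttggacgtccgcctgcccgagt
Ldha: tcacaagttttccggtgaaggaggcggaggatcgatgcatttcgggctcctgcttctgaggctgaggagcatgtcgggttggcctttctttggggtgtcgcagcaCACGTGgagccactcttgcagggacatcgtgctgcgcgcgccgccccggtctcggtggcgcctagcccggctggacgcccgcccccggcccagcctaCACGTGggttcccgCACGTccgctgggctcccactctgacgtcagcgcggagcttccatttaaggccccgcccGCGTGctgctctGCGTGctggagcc
In these windows, Hk2 held 2 ACGTG cores, Pfkfb3 held 1, and Pfkfb4 held 1 GCGTG core and no ACGTG. The window at the second start of Pfkfb3, not printed, held 4 matches, 2 of them ACGTG.

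The deposited values are log2 expression, so a difference of 1 is a 2-fold change, and values of different genes cannot be compared with each other. Array medians lay between 5.48 and 5.53, and pairs of arrays correlated over all genes at 0.983 to 0.992 within pegtarazimod, 0.989 to 0.994 within vehicle and 0.974 to 0.991 across the groups. Markers of intestinal epithelium averaged 10.60 to 10.68 per array with pegtarazimod and 10.54 to 10.69 with vehicle. Of the 6 endothelial markers, 3 (Kdr, Tek and Emcn) were dimmer than the lower quartile on all arrays. Precision is limited by having 5 arrays per group. All 32 measured genes were brighter than the lower quartile on every array.

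The comparison asked which of these transcripts pegtarazimod altered in TNF-treated organoids. Hk2, the inducible hexokinase, fell 1.57-fold, and Pfkfb4, a PFKFB isozyme, rose 1.78-fold. No other member passed the test. Thus 2 of 32 (6.25%) were called by limma at an adjusted p below 0.05, against 4.89% of all genes, a share near this background. By direction, 1 of 32 rose (2.5% of all genes did) and 1 of 32 fell (2.39% of all genes did). In 2 members, Pfkfb4 and Hif1a, all pegtarazimod arrays lay above all vehicle arrays, and 6.71% of all genes had groups that did not overlap in either direction. The members did not lean one way, with 17 differences above 0 and 15 below and a median of 0.07, against a median of 0.00 over all genes. The median size of a difference, regardless of direction, was 0.197 in the members and 0.114 over all genes, and 24 of the 32 differed by less than 0.3. The values over all genes include dim genes and were not matched to the members for brightness. At an unadjusted limma p below 0.05 stood 9 of the 32, and 3698 of all genes (19.0%).

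**Figure D1:**
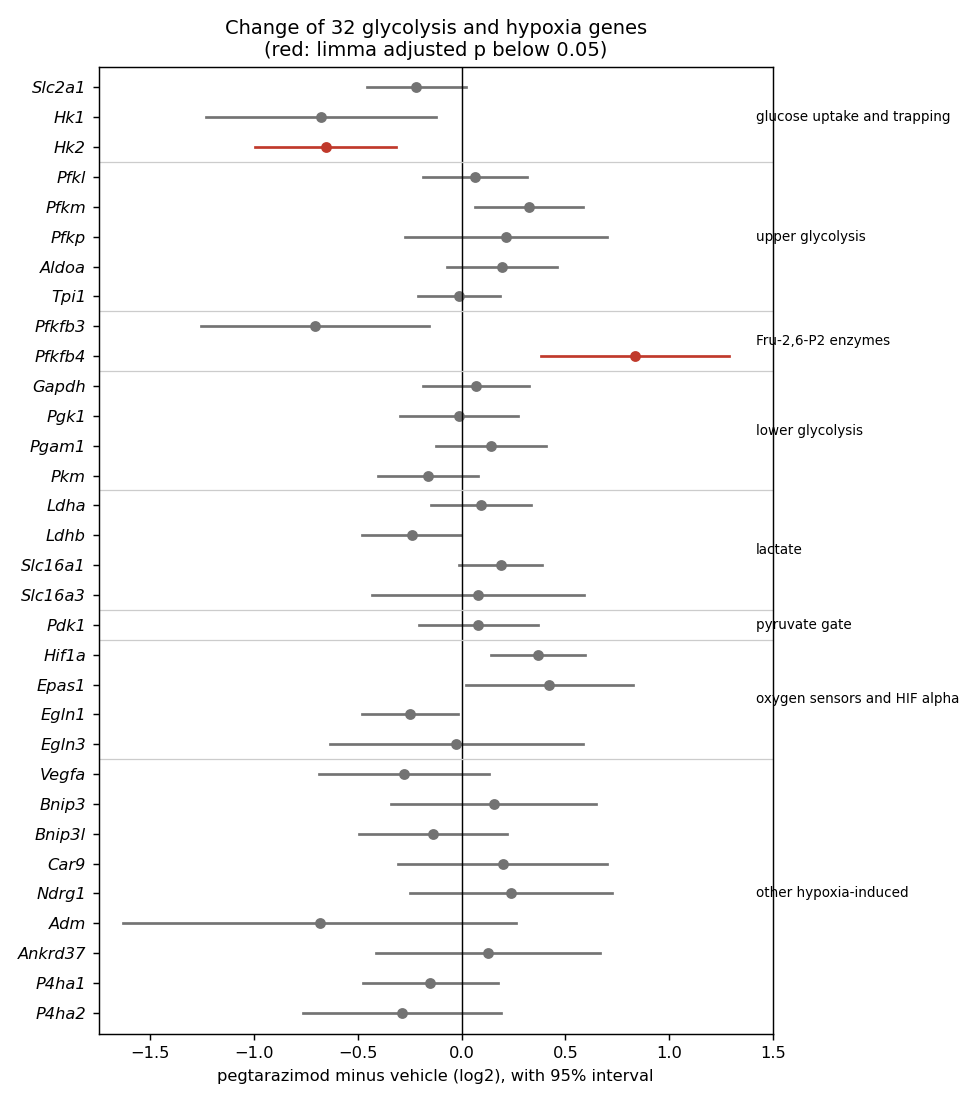
Difference between pegtarazimod and vehicle for the 32 measured genes on the log2 scale (x axis), grouped by role down the page, with the 95% interval from limma as bars and genes with an adjusted p below 0.05 in red. Hk2 (-0.66) and Pfkfb4 (0.83) are the red points, Hk1, Pfkfb3 and Adm lie about as far to the left as Hk2 with wider intervals, and most enzymes of the main pathway lie close to 0.

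Glucose uptake and trapping gave 1 fall among 3 genes. Slc2a1, the GLUT1 carrier, gave 10.85, 10.60, 10.58, 10.24 and 10.48 on pegtarazimod arrays 1 to 5, against 10.97, 10.82, 10.69, 10.68 and 10.69 on vehicle arrays 1 to 5. Only pegtarazimod 1 lay inside the vehicle range, and the difference of -0.22 (95% interval -0.46 to 0.02) did not pass the test (limma adjusted p = 0.322). Hk2 gave 7.95, 7.35, 8.20, 8.08 and 7.75 with pegtarazimod, against 8.65, 8.15, 8.52, 8.47 and 8.81 with vehicle. The groups overlapped through 1 pair of arrays, pegtarazimod 3 lying just above vehicle 2. The means were 7.87 ± 0.34 with pegtarazimod and 8.52 ± 0.24 with vehicle (SD, n = 5 each), a difference of -0.66 (SE 0.16, limma adjusted p = 0.0300). The call was lost when any of 7 of the 10 arrays was left out (pegtarazimod 1, 2 or 5, or vehicle 1, 3, 4 or 5), with limma adjusted p up to 0.0786 without vehicle 5, while the difference stayed between -0.53 and -0.75.

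Hk1, the constitutive hexokinase bound to the mitochondrial surface, gave 8.04, 7.81, 7.38, 7.08 and 6.62 with pegtarazimod, against 8.70, 8.42, 7.67, 7.73 and 7.79 with vehicle. Pegtarazimod 1 and 2 lay above vehicle 3 to 5, so the groups overlapped, and the difference of -0.68 (SE 0.26) did not pass the test (limma adjusted p = 0.164). Replicates 1 and 2 stood above replicates 3 to 5 in both groups, and within each of these sets the pegtarazimod arrays were all lower than the vehicle arrays. With a block for the 2 sets, Hk1 was called lower (limma adjusted p = 0.0032). Hk2 minus Hk1 changed by 0.02 between the groups, so a difference between the changes of the 2 hexokinases was not detected (exact permutation test over all splits of the arrays into 5 and 5, two-sided, p = 0.944, adjusted over 10 pairs p = 0.944).

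The PFKFB enzymes, which make and remove the activator of phosphofructokinase, gave differences of opposite sign. Pfkfb4 gave 8.73, 8.38, 7.79, 7.66 and 7.74 with pegtarazimod, against 7.54, 7.59, 6.73, 7.22 and 7.05 with vehicle. Every pegtarazimod array exceeded every vehicle array, and the narrowest gap was between pegtarazimod 4 and vehicle 2. The means were 8.06 ± 0.47 with pegtarazimod and 7.23 ± 0.36 with vehicle (SD, n = 5 each), a difference of 0.83 (SE 0.21, limma adjusted p = 0.0382). The call was lost without pegtarazimod 1 or 2 or vehicle 3, 4 or 5, with limma adjusted p up to 0.106 without vehicle 3, and also with an intensity trend and robust priors (limma adjusted p = 0.0627).

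Pfkfb3, the isozyme with the highest ratio of kinase to phosphatase activity, gave 8.48, 6.87, 7.78, 7.31 and 7.23 with pegtarazimod, against 8.89, 7.88, 8.13, 8.12 and 8.17 with vehicle. Pegtarazimod 1 was above vehicle 2 to 5, while the other 4 pegtarazimod arrays were below all vehicle arrays. The difference of -0.71 (SE 0.26) did not pass the test (limma adjusted p = 0.142), and without pegtarazimod 1 it was -0.94 and did (limma adjusted p = 0.0251). Pfkfb3 minus Pfkfb4 was -0.25, -1.51, -0.01, -0.36 and -0.52 on pegtarazimod arrays 1 to 5, against 1.35, 0.28, 1.401, 0.90 and 1.12 on vehicle arrays 1 to 5. This log ratio was negative on all pegtarazimod arrays and positive on all vehicle arrays, although its sign has no meaning across probe sets and only the shift of -1.54 (SE 0.33) does. The exact permutation test gave p = 0.00794, the smallest that these splits allow, and 0.0794 after adjustment over 10 pairs. The shift therefore did not pass, but with 5 arrays per group 1 pair alone cannot go below that adjusted value.

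The remaining enzymes of upper glycolysis did not pass the test. Pfkm, the muscle-type phosphofructokinase subunit, gave 7.23, 7.36, 6.72, 6.84 and 6.90 with pegtarazimod, against 6.75, 6.72, 6.53, 6.76 and 6.66 with vehicle. All pegtarazimod arrays but pegtarazimod 3 were above the vehicle arrays, with a difference of 0.33 (limma adjusted p = 0.152). Pfkl, the liver-type subunit, differed by 0.07 and Pfkp, the platelet-type subunit, by 0.21. The change of Pfkm exceeded that of Pfkl by 0.26 (exact permutation p = 0.0476, 0.159 adjusted over 10 pairs), which failed the correction. Aldolase (Aldoa) differed by 0.20 and triosephosphate isomerase (Tpi1) by -0.01 (95% interval -0.21 to 0.19).

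Lower glycolysis, from the first oxidation to pyruvate, showed 0 of 4 measured genes called. Gapdh, the dehydrogenase of that step, gave 12.26, 12.20, 11.96, 11.78 and 11.70 with pegtarazimod, against 12.01, 12.06, 11.88, 11.86 and 11.74 with vehicle. Its pegtarazimod arrays spanned the whole vehicle range, and the difference was 0.07 (95% interval -0.19 to 0.32). The ATP-forming kinase Pgk1 differed by -0.01 (95% interval -0.30 to 0.27), the mutase Pgam1 by 0.14 and pyruvate kinase Pkm by -0.16. The array does not separate the Pkm splice forms in these values. A p that misses the threshold does not show equal expression, and the 95% interval of Pkm ran from -0.41 to 0.08.

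Lactate handling and the pyruvate gate gave no call among 5 genes. Ldha, the subunit of lactate dehydrogenase that favours lactate formation, gave 11.86, 11.79, 11.52, 11.42 and 11.44 with pegtarazimod, against 11.65, 11.69, 11.45, 11.41 and 11.36 with vehicle. The groups overlapped and the difference was 0.09 (95% interval -0.15 to 0.33). Ldhb, the subunit of the heart-type enzyme, was dim, at 4.46 to 4.90 with pegtarazimod and 4.61 to 5.07 with vehicle. These values lay below the lowest array median, 5.48. Ldhb differed by -0.24 (limma adjusted p = 0.263), and the changes of the 2 subunits differed by 0.33 (exact permutation p = 0.0873, 0.218 adjusted over 10 pairs). The monocarboxylate carriers Slc16a1 (MCT1) and Slc16a3 (MCT4, the lactate exporter of glycolytic cells) differed by 0.19 and 0.08. Slc16a3 varied more among the pegtarazimod arrays, between 8.89 and 10.38, than among the vehicle arrays, between 9.40 and 9.97. Pdk1, the kinase that turns off pyruvate dehydrogenase, differed by 0.08.

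Among the oxygen sensors and HIF alpha subunits, Hif1a came closest to the threshold. Hif1a gave 9.39, 9.42, 9.27, 9.58 and 9.22 with pegtarazimod, against 9.21, 9.10, 8.82, 8.82 and 9.08 with vehicle. The groups did not overlap, but pegtarazimod 5 and vehicle 1 nearly met. The means were 9.38 ± 0.14 with pegtarazimod and 9.01 ± 0.18 with vehicle (SD, n = 5 each), a 1.29-fold difference (0.37, SE 0.11) that missed the threshold (limma adjusted p = 0.0613). It passed in 6 alternative fits (limma adjusted p = 0.0297 to 0.0498), among them the block for replicates 1 and 2 against 3 to 5 and the fit without vehicle 1.

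Epas1, which encodes HIF-2 alpha, gave 6.36, 6.98, 6.77, 6.31 and 6.08 with pegtarazimod, against 5.98, 6.69, 5.80, 6.08 and 5.85 with vehicle. Replicate 2 was the highest in both groups, the groups overlapped, and the difference was 0.42 (SE 0.19, limma adjusted p = 0.239). Of the prolyl hydroxylases that mark HIF alpha in normal oxygen, Egln1 (PHD2) differed by -0.25 (limma adjusted p = 0.227) and Egln3 (PHD3), itself induced by HIF, by -0.03 (95% interval -0.63 to 0.58). The changes of Hif1a and Epas1 were not shown to differ (exact permutation p = 0.786, adjusted over 10 pairs p = 0.873).

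None of the other 9 hypoxia-induced genes was called, 4 with differences above 0 and 5 below, with a median of -0.14. Car9, the cell-surface carbonic anhydrase used as a marker of hypoxic tissue, gave 9.995, 10.14, 9.48, 8.91 and 9.19 with pegtarazimod, against 9.78, 9.81, 9.07, 9.04 and 9.03 with vehicle. The groups overlapped, and the difference was 0.20 (95% interval -0.31 to 0.70). Adm, which encodes the vasodilator peptide adrenomedullin, gave 7.17, 5.43, 5.70, 4.79 and 5.22 with pegtarazimod, against 7.90, 5.79, 5.76, 5.82 and 6.46 with vehicle. Replicate 1 was far above the other arrays in both groups, and the difference of -0.68 had an SE of 0.44 (limma adjusted p = 0.456). The angiogenic factor Vegfa differed by -0.28, and the collagen prolyl hydroxylase subunits P4ha1 and P4ha2 by -0.15 and -0.29. The mitophagy receptors Bnip3 and Bnip3l differed by 0.15 and -0.14, and the gap between their changes (0.29) failed the correction over 10 pairs (exact permutation p = 0.0476, adjusted p = 0.159). Ndrg1 and Ankrd37, whose transcripts rise in hypoxic cells, differed by 0.24 and 0.13.

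**Figure D2:**
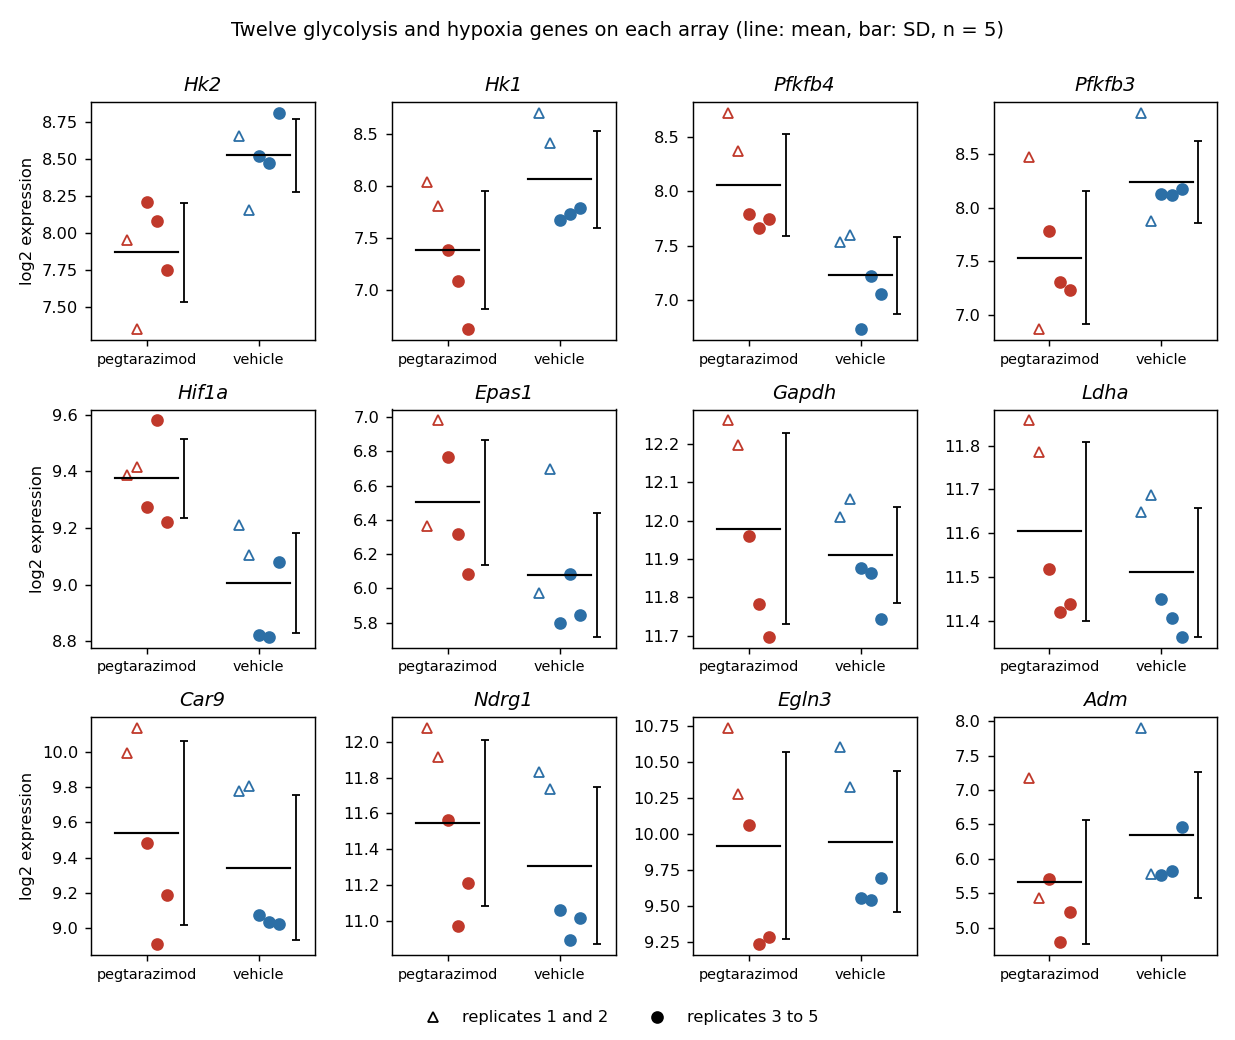
Log2 expression (y axis, a scale of its own in each panel) of 12 of the genes on the 5 pegtarazimod and 5 vehicle arrays, with the mean as a line and the SD as a bar; open triangles are replicates 1 and 2, filled circles replicates 3 to 5. Pfkfb4 and Hif1a separate the groups, and in Gapdh, Ldha, Car9, Ndrg1, Egln3 and Hk1 the triangles stand above the circles of the same group.

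The members also separated by replicate number. In both groups, 30 of the 32 (93.8%) averaged lower in replicates 3 to 5 than in replicates 1 and 2, against 28.3% of all genes. Hk2 was the 1 member that was higher in replicates 3 to 5 in both groups, and Ldhb was the 1 that differed in sign between the groups. The median of replicates 3 to 5 minus replicates 1 and 2 was -0.35 over the members and 0.01 over all genes. It was -0.40 in the pegtarazimod arrays and -0.35 in the vehicle arrays. Egln3 gave 10.74 and 10.28 on pegtarazimod arrays 1 and 2 and 10.07, 9.24 and 9.29 on pegtarazimod arrays 3 to 5, and 10.60 and 10.33 on vehicle arrays 1 and 2 and 9.56, 9.54 and 9.70 on vehicle arrays 3 to 5. Ndrg1 gave 12.08 and 11.91 and then 11.57, 10.97 and 11.21 with pegtarazimod, and 11.83 and 11.74 and then 11.06, 10.90 and 11.02 with vehicle. Bnip3 gave 9.86 and 9.93 and then 9.35, 8.75 and 9.02 with pegtarazimod, and 9.65 and 9.65 and then 8.98, 8.89 and 8.95 with vehicle. In each of these 3 genes, replicates 1 and 2 were above replicates 3 to 5 within both groups, and among replicates 3 to 5 the highest pegtarazimod array was replicate 3. The 9 other hypoxia-induced genes were all lower in replicates 3 to 5, with a median of -0.74. In 28 of the 32, the highest array was replicate 1 or 2 in both groups, a count for which no share over all genes was computed. The labels name no batch, and this split of the replicates had been seen in these arrays before, so it is described without a test.

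**Figure D3:**
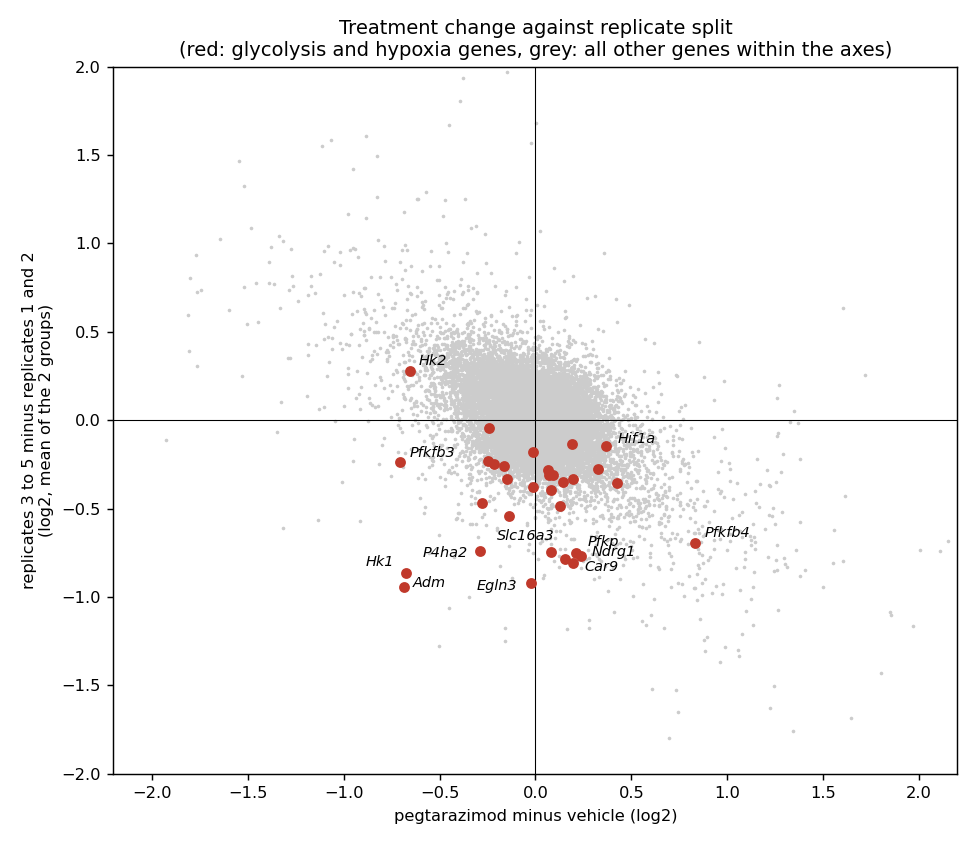
Each point is a gene, with pegtarazimod minus vehicle on the x axis and replicates 3 to 5 minus replicates 1 and 2 (mean of both groups) on the y axis, both in log2 units; the 32 members are red. The members lie below 0 on the y axis except Hk2, down to -0.94 for Adm, and spread on both sides of 0 on the x axis; the axes share the same 10 arrays.

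Within the 2 sets of replicates, fitted with a common spread, the differences of 26 of the 32 members had the same sign in both. The like share over all genes was not computed, so this count has no background beside it. Within replicates 1 and 2, 2 of 32 were called, both higher (Pfkfb4 by 0.99, limma adjusted p = 0.0039, and Pfkm by 0.56, limma adjusted p = 0.0265), against 6.3% of all genes. Within replicates 3 to 5, 2 of 32 were called (Pfkfb4 higher by 0.73, limma adjusted p = 0.0104, and Hk1 lower by 0.70, limma adjusted p = 0.0381), against 3.34% of all genes. With the sets as a block, 4 of 32 were called (Pfkfb4 and Hif1a higher, Hk1 and Hk2 lower), against 9.33% of all genes. No member's difference was shown to depend on the set, the lowest limma adjusted p of that interaction being 0.635. Of all genes, 5 passed that test and 1493 had an unadjusted p below 0.05.

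Markers of epithelial cell types moved with pegtarazimod, and those of each type but goblet cells also moved with the replicate split. Of the crypt stem cell markers, 8 of 11 fell, among them Axin2 and Ascl2, and their mean per array was 7.66 to 8.30 with pegtarazimod and 8.96 to 9.23 with vehicle. Of the enterocyte markers, 6 of 14 rose (array means 9.34 to 10.34 with pegtarazimod and 8.61 to 9.16 with vehicle), and of the goblet cell markers, 6 of 8 rose (8.16 to 8.39 and 7.29 to 7.60). Of the Paneth cell markers, 6 of 9 fell (7.06 to 8.22 with pegtarazimod and 8.16 to 9.17 with vehicle), as did 3 of 9 proliferation genes (8.24 to 8.91 and 9.06 to 9.26). In replicates 3 to 5, 9 of 9 Paneth cell, 8 of 9 proliferation and 7 of 11 crypt stem cell markers were higher in both groups, against 31.1% of all genes. In the same replicates, 9 of 14 enterocyte markers were lower in both groups, against 28.3% of all genes. Of the 8 goblet cell markers, 3 were lower there in both groups and 2 higher, near these shares of all genes. For the other types, the median of replicates 3 to 5 minus replicates 1 and 2 was larger in size with pegtarazimod than with vehicle. It was -0.76 and -0.09 for enterocyte markers, and 0.40 and 0.17 for crypt stem cell markers. For proliferation genes it was 0.44 and 0.15, and for Paneth cell markers 0.85 and 0.64. Stromal, endothelial and leukocyte markers gave 1 call among 18 genes (Vim, which rose), near the 4.89% of all genes called. By direction, 2.5% of all genes rose and 2.39% fell, the background for each marker list here. Of the 7 markers of intestinal epithelium as a whole, 1 was called higher. The part of these cell types in the differences of the members and of the further genes below was not tested, and in whole organoids fewer cells of a type and less RNA per cell cannot be told apart.

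Beyond the 34, lists of related pathways held 134 further measured genes, of which 4 rose and 5 fell, 9 in all (of all genes, 2.5% rose and 2.39% fell, 4.89% in all), a share near the background. With the block for the 2 replicate sets, 24 of the 134 were called, a share above the 9.33% of all genes called with it. In gluconeogenesis, which runs the pathway backwards, 2 of 8 rose and 0 fell, with a median difference of 0.48 (4 higher and 0 lower with the block for the replicate sets). G6pc, the catalytic subunit of glucose-6-phosphatase, which releases free glucose, gave 8.45, 7.68, 7.16, 7.36 and 6.85 with pegtarazimod, against 6.83, 5.86, 6.24, 6.40 and 6.73 with vehicle. All pegtarazimod arrays were above all vehicle arrays, with a 2.13-fold rise (limma adjusted p = 0.0269). Fbp2, a fructose-bisphosphatase that opposes phosphofructokinase, gave 9.89, 9.73, 9.53, 9.44 and 9.61 with pegtarazimod, against 9.12, 8.97, 8.75, 8.90 and 9.22 with vehicle. It rose 1.57-fold with no overlap (limma adjusted p = 0.0053). The G6pc call was lost without pegtarazimod 2 or vehicle 2, 3 or 4 (limma adjusted p up to 0.0758) and with an intensity trend and robust priors (limma adjusted p = 0.0651).

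The further rises were in Pgm2, a phosphoglucomutase of sugar phosphate metabolism, and Slc16a5, a monocarboxylate carrier (MCT6). Pgm2 gave 8.95, 8.82, 9.03, 8.97 and 8.98 with pegtarazimod, against 8.41, 8.43, 8.24, 8.45 and 8.34 with vehicle. Slc16a5 gave 8.27, 7.99, 8.08, 7.98 and 7.96 with pegtarazimod, against 7.38, 7.56, 7.06, 7.20 and 7.23 with vehicle. Neither gene's groups overlapped, and the rises were 1.49-fold for Pgm2 (limma adjusted p = 0.0018) and 1.71-fold for Slc16a5 (limma adjusted p = 0.0015). Pgm2, Slc16a5 and Fbp2 kept their calls whichever array was left out.

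Of 36 further HIF targets, 4 fell and 0 rose, with a median of 0.02 over the list (of all genes, 2.39% fell and 2.5% rose). With the block for replicates 1 and 2 against 3 to 5, which called 9.33% of all genes, 5 were lower and 2 higher, so the calls then ran both ways. The 2 higher ones were P4hb and Selenbp1, named after their values were seen. Stc1, which encodes the secreted glycoprotein stanniocalcin, gave 5.92, 5.28, 5.51, 5.38 and 4.98 with pegtarazimod, against 6.90, 6.75, 5.91, 6.21 and 5.86 with vehicle. Its groups overlapped only through pegtarazimod 1, with a 1.88-fold fall (limma adjusted p = 0.0253). Its paralog Stc2 fell 1.61-fold (limma adjusted p = 0.0349), the carbonic anhydrase Car12 fell 1.61-fold (limma adjusted p = 0.0236) and Hmox1, the heme oxygenase that also answers oxidative stress, fell 1.41-fold (limma adjusted p = 0.0391). In pyruvate entry, Pdp1, the phosphatase that turns pyruvate dehydrogenase back on, fell 1.41-fold (limma adjusted p = 0.0446). Each of these 5 falls lost its call when any of 3 to 7 single arrays was left out, with limma adjusted p up to 0.0622 for Car12, 0.0639 for Stc1, 0.0928 for Stc2, 0.111 for Hmox1 and 0.130 for Pdp1. The arrays were pegtarazimod 2 and vehicle 4 and 5 for Car12, pegtarazimod 2 and 5 and vehicle 2 and 4 for Stc1, and every array but pegtarazimod 3 and vehicle 4 and 5 for Stc2. They were pegtarazimod 1, 3 and 5 and vehicle 1 to 4 for Hmox1, and pegtarazimod 1, 2 and 5 and vehicle 2, 3 and 4 for Pdp1. The Pdp1 call was also lost after quantile normalisation (limma adjusted p = 0.0551) and after median centring (limma adjusted p = 0.0525).

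No gene was called among 13 of the sugar carrier families, 5 of the pentose phosphate pathway or 9 of glycogen metabolism. The same held for 15 genes of oxygen sensing and HIF partnership and 6 of iron handling. With the block for the 2 replicate sets, Slc2a9 of the sugar carrier families was called higher and the HIF partner Arnt2 and the elongin Eloc lower. All 3 are named after their values were seen, and the other 3 of these lists still had no call. The iron-handling genes were lower in replicates 3 to 5 in both groups in 6 of 6 cases, against 28.3% of all genes. Their median was -0.62, with -0.88 in the pegtarazimod arrays and -0.28 in the vehicle arrays.

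**Figure D4:**
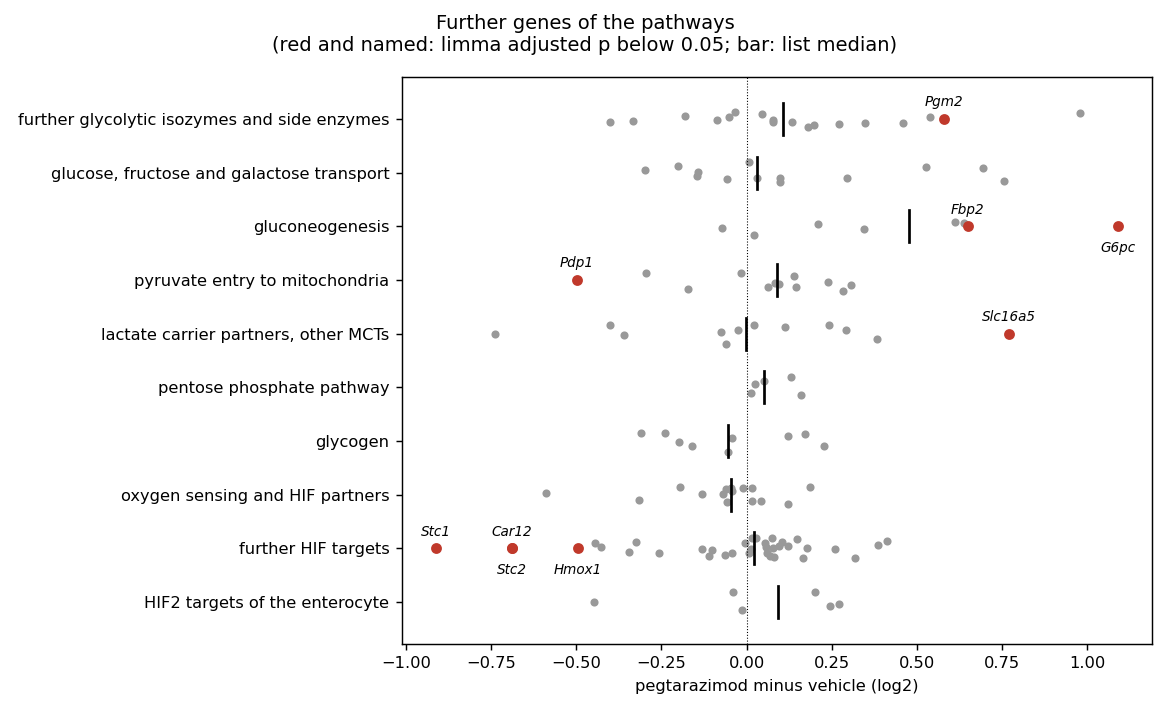
Difference between pegtarazimod and vehicle on the log2 scale (x axis) for each gene of the further lists (rows), with the list median as a bar and genes with a limma adjusted p below 0.05 in red. The named genes are the 4 that rose (Pgm2, Fbp2, G6pc and Slc16a5) and the 5 that fell (Pdp1, Car12, Stc1, Stc2 and Hmox1), and the median of gluconeogenesis lies at 0.48.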

How the data were processed

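RNA was isolated with a column kit and labelled with biotin by a whole-transcript kit, per the labels' protocols. Per probe set, the authors deposited log2 expression made by RMA in oligo (per the submitters' processing notes), which includes background correction and quantile normalisation, so a shift common to most genes would not be seen. The sources used here give no versions, annotation or build of the files; detection calls were not used. Of 22203 probe sets, 2631 were unnamed here and left out. The probe set with the highest mean represented each of 19505 genes (55 had several). Groups came from the labels. Groups were compared by limma 3.58.1 (R 4.3.3; eBayes after lmFit, without covariates), with p-values adjusted by Benjamini-Hochberg over all 19505 genes, threshold 0.05. Changes of 10 pairs of related genes were compared by exact permutation of 10 arrays. The fit and the permutation test were tested on simulated data. The members, lists and tests were chosen with earlier results of these data known. All members are named, with up to 4 called genes per further list (smallest p) and up to 3 per marker list. Alternatives were 2 scalings, 2 filters on dim genes, an intensity trend, array weights, 2 blocks, fits within replicate sets, probe-set means and leaving out each array. Python 3.11.15 with matplotlib 3.10.9 drew the figures.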

Additional observations from a re-analysis of the deposited data

Results flagged for a closer look

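Car12 stood out for 1 array far from its group. Its value on vehicle 3 was 7.998, against 8.36 to 8.41 on the other 4 vehicle arrays, a gap of 0.867 of the group's range, where Dixon's critical value for 5 samples is 0.71. The pegtarazimod arrays gave 7.05 to 7.96. Among 102 groups of 5 tested this way (members, further genes named and gene pairs), 1 stood out, and chance alone gives about 5% of them, or 5.1.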

How the results depend on the processing

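The directions of Hk2, Pfkfb4, Pfkfb3, Hk1 and Hif1a were the same in every alternative. Leaving out 1 array moved the calls over all genes to 437 to 1245, the members called higher to 0 to 2, the members called lower to 0 to 1, and the further pathway genes called to 4 to 16. The calls over all genes numbered 437 to 562 without pegtarazimod 1 or 2 or vehicle 3, 4 or 5, and the further genes 4 to 5 without pegtarazimod 2 or vehicle 2 or 4 and 16 without pegtarazimod 4. Members called higher numbered 2 without the dimmest 25% or 50% of genes, with array weights, with either block and within replicates 1 and 2, the second being Hif1a except in the replicate block (Epas1) and within replicates 1 and 2 (Pfkm). Members called lower numbered 2 with the block for replicates 1 and 2 against 3 to 5, and 0 within replicates 1 and 2. That block gave 1820 calls over all genes (9.33%), and 24 of the 134 further pathway genes were called with it. Within replicates 1 and 2, 22 of the 134 were called, against 6.3% of all genes. Both shares of the further genes lay above those of all genes. Without the dimmest 50% of genes, the further pathway genes called numbered 17 (fewer genes were tested). Genes whose change differed between the replicate sets numbered 54 with an intensity trend and robust priors, against 5.

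Samples of the groups share replicate numbers, but nothing states that a number marks a common source. Deviations of same-numbered arrays correlated at 0.0993 to 0.310, with 8 of 10 arrays correlating best with their own number, and the numbers were not taken as pairs. A replicate block gave 1606 calls over all 19505 genes and 23 among the 134 further pathway genes. Of the 32 members, it called 2 higher and 4 lower, the 4 being Hk1, Hk2, Pfkfb3 and Adm. The shares of the members and of the further genes called with it were larger than the share of all genes. With treatment exchanged within each number, Pfkfb3 minus Pfkfb4 gave an exact p of 0.0625, the smallest that 32 arrangements allow.

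Small differences changed sign. Median centring turned Tpi1 (0.0164), Pgk1 (0.0161) and Egln3 (0.00235), and replicates 1 and 2 alone gave 0.0757, 0.0824 and 0.0406 for these genes. Replicates 3 to 5 alone turned Pfkl (-0.00483), Gapdh (-0.0155) and Slc16a3 (-0.119). Leaving out 1 array gave -0.0580 to 0.0228 for Tpi1, -0.00110 to 0.14 for Gapdh, -0.10 to 0.0715 for Pgk1, -0.0915 to 0.28 for Slc16a3, -0.23 to 0.15 for Egln3 and -0.10 to 0.31 for Ankrd37. It gave -0.16 to 0.26 for Hk2 minus Hk1, -0.27 to 0.0640 for Slc16a3 minus Slc16a1 and -0.18 to 0.0551 for Hif1a minus Epas1. The cause was not tested.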
